A study of Mus musculus with 6 samples.

Results

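The 38 genes described here encode the folding and quality-control machinery of the endoplasmic reticulum (ER). They were taken by symbol from a table of 25189 genes, where all 38 had a row. By role they are 5 sensors and their transcription factors, 10 chaperones, exchange factors and checkpoint genes, 9 genes of the disulfide isomerase family, 4 prolyl isomerases and 10 genes of ER-associated degradation. RNA had been sequenced in 6 libraries, whose labels name kidney as the tissue, male C57BL/6 mice, the wild-type genotype and day 2. There were 3 libraries of ischaemia and reperfusion (I/R, an injury in which blood flow is stopped and restored) and 3 libraries of I/R with chemerin-9 (C9). Chemerin-9 is a peptide cut from the C-terminus of the adipokine chemerin and acts on the chemerin receptor. Both groups carried the same injury, strain, sex and genotype, and no uninjured kidney is compared here. No dose is labelled. Whether the libraries stand for separate mice is not labelled either, so a p-value here measures the spread between libraries, which may be technical.

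Proteins that enter the ER fold with the help of the HSP70 chaperone BiP (Hspa5), the HSP90 paralogue GRP94 (Hsp90b1) and the lectins calreticulin and calnexin, which hold newly made glycoproteins. Protein disulfide isomerases form and rearrange disulfide bonds, and prolyl isomerases turn the peptide bond before proline. Proteins that fail to fold are marked by trimming of their sugars, threaded out through a membrane complex around the ubiquitin ligase HRD1 (Syvn1) and degraded. When unfolded proteins build up, 3 sensors in the ER membrane, IRE1 (Ern1), PERK (Eif2ak3) and ATF6, start the unfolded protein response, in which ATF6 and spliced XBP1 switch on chaperone and degradation genes. In the kidney this response is well known from ischaemic injury.

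The libraries held 11217252 to 16938301 counts. Levels are in CPM, counts per 1000000 scaled to library size with TMM factors. Most markers of the labelled tissue were low. Lrp2, megalin of the proximal tubule, was at 3.19 ± 0.531 CPM in I/R and at 3.37 ± 0.747 in the chemerin-9 group (SD, n = 3 each), and Aqp2 of the collecting duct was at 0.0926 ± 0.0821 and 0.107 ± 0.0938 CPM. Of 21 nephron genes listed, 10 were in the table, and their median level was 0.654 to 1.36 CPM per library. The highest of the 10 were Pax8, at 45.5 ± 1.65 and 29.6 ± 3.17 CPM, and Aqp1, at 18.2 ± 0.201 and 17.7 ± 2.05 CPM. Dividing-cell genes (10 of 10 with a row) lay at a median of 220.1 to 237 CPM and genes of matrix-producing cells (11 of 12) at 158 to 171 CPM. These levels do not bear out the label of kidney tissue, and which cells were sequenced is not known here. The titles of all 3 treated samples say C9, but their treatment labels are C9, C10 and C11. The table names its treated columns IC, which was read as I/R with C9. This reading rests on the initials alone, and every statement on chemerin-9 rests on it. The batch values are 6 different dates, 1 per library, so batch and treatment cannot be told apart.

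The promoters come before the levels because ATF6 and its partner NF-Y are known to act on these genes through a defined element, the ER stress response element (ERSE), which is CCAAT and CCACG with 9 bases of any kind between them. RefSeq windows from 250 bases before to 50 bases after a transcription start (build GRCm38.p6) existed for 32 of the 38 genes. Atf6, Hyou1, Sil1, Manf, Erp29 and Derl1 had no window and were not searched. Both strands were searched, and CCAAT and CCACG are also short motifs of their own inside it. An exact match was found in 8 of these 32 genes (25.0%), against 37 of 27025 genes with a window (0.137%). All 9 matches are printed, since most lie in genes whose levels are described here (Derl3 was too low to test), with the element in capitals, 12 flanking bases in lower case on each side, and the strand that reads CCAAT first.

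Hspa5: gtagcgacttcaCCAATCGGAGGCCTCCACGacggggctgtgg
Hsp90b1, upstream: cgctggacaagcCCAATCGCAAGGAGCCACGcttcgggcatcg
Hsp90b1, downstream: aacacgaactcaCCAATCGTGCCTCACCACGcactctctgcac
Calr: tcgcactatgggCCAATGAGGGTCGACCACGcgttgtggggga
Canx: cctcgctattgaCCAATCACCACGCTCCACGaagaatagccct
Creld2: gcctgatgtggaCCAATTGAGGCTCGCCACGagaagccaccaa
Pdia6: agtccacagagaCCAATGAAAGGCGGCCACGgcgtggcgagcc
Syvn1: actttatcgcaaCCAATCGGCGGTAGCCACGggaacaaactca
Derl3: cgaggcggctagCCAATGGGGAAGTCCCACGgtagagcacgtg

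The capitals stand at chr2:34772025-34772043 for Hspa5, chr10:86705638-86705656 and chr10:86705533-86705551 for Hsp90b1, chr8:84847075-84847093 for Calr and chr11:50325800-50325818 for Canx. They stand at chr15:88819520-88819538 for Creld2, chr12:17266491-17266509 for Pdia6, chr19:6046532-6046550 for Syvn1 and chr10:75893242-75893260 for Derl3. Matches in Hspa5, Canx, Pdia6 and Syvn1 and the upstream match in Hsp90b1 read CCAAT first on the strand of the gene, and the others on the opposite strand. The matches lay between 212 bases (Hsp90b1) and 26 bases (Syvn1) upstream of the start, which lies inside the window by RefSeq and can differ from the gene start of the count table. Of the 8 genes, 5 are chaperones, 1 is a disulfide isomerase and 2 belong to degradation. None is among the 4 sensor genes with a window, and Atf6 was not searched. The shorter element ERSE-II, which is ATTGG and CCACG with 1 base between them, matched only Herpud1 among the 32 genes and 12 of the 27025 genes. In Herpud1 it reads as follows at chr8:94386377-94386387, again with the element in capitals.

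Herpud1: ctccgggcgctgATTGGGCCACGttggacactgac

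The whole stretch of 250 bases before the start is shown for the most abundant of these genes, Hspa5 (chr2:34771840-34772089, plus strand), and for the gene with 2 matches, Hsp90b1 (chr10:86705445-86705694, minus strand), with each exact ERSE in capitals.

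Hspa5 promoter: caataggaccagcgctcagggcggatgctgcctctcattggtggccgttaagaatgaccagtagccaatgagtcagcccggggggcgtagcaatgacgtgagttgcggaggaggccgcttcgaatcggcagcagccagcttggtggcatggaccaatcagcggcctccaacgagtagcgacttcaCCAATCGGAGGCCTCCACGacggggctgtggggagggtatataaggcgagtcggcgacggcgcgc
Hsp90b1 promoter: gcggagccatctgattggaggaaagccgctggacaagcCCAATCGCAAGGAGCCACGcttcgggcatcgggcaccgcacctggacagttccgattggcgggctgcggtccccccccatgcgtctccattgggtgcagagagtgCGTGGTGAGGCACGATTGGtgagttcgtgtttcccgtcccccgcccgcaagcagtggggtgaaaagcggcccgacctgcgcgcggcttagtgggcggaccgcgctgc

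The core TGACGTG, which XBP1 and ATF6 can also bind and whose last letters overlap the reverse of CCACG only when a G follows, matched the windows of 3 of the 32 genes (Hspa5, Txndc5 and Txndc11) and 601 of the 27025 genes (2.22%). A match is a description of letters, and no binding was measured in these libraries.

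With chemerin-9 the ER folding machinery was lower, while the sensors went both ways. Of the 38 genes, 37 passed the filter on low counts and were tested, 28 fell, 2 rose and 7 did not pass (edgeR quasi-likelihood test, Benjamini-Hochberg adjusted p under 0.05 over 14184 genes). Among all tested genes 51.7% passed, 26.1% fell and 25.6% rose, so the 75.7% that fell here stand against that background. The median log2 fold change was -0.45 for the 37 genes and -0.0037 for all tested genes. At least 2-fold lower were 5 of the 37 genes, against 2.51% of all tested genes, and at least 1.5-fold lower were 14, against 7.76%. None of the 37 rose 1.5-fold, against 8.18% of all tested genes. The 3 chemerin-9 libraries lay wholly below the 3 I/R libraries in 29 of the 37 genes, against 29.2% of all tested genes, and wholly above them in 3, against 29.3%. At an FDR under 0.05 in the authors' deposited table, 26 of the genes were lower and 2 higher, and the genes called here but not there were Ppib and Fkbp14.

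**Figure D1:**
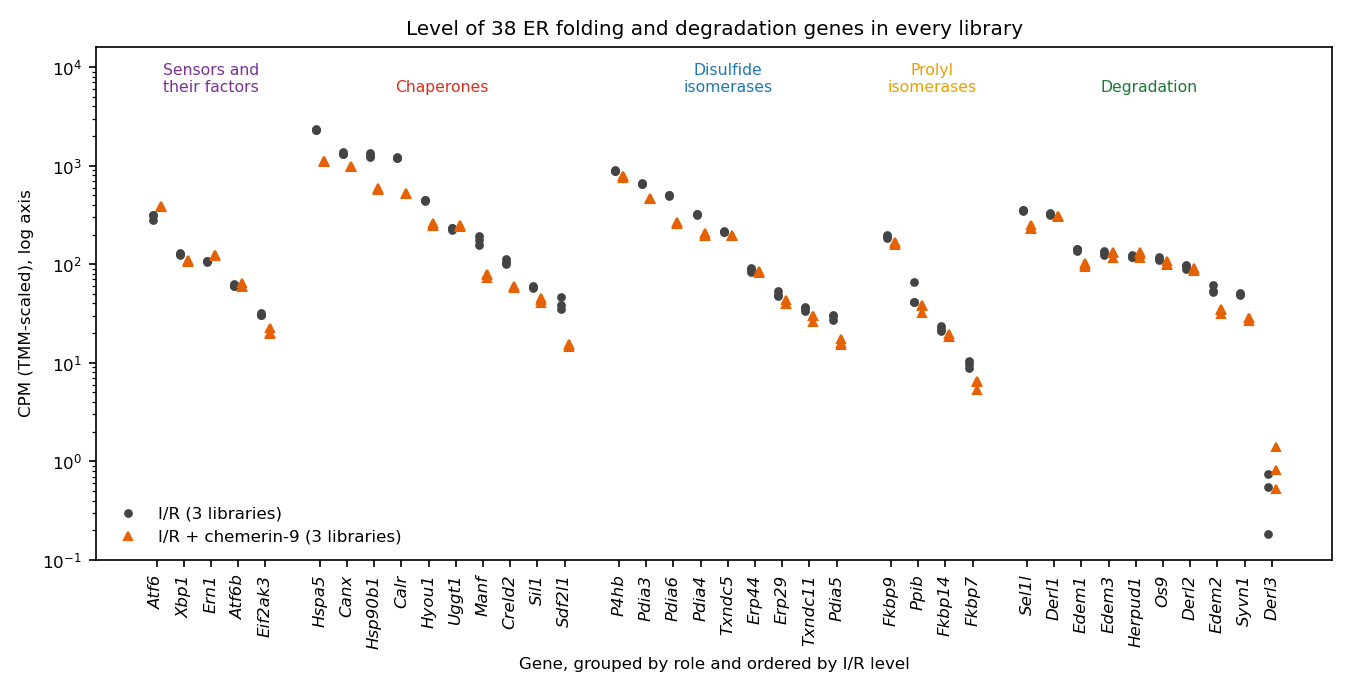
Level of each of the 38 genes in the 6 libraries, in TMM-scaled CPM on a log axis, grouped by role and ordered by the I/R level. Circles are the 3 I/R libraries and triangles the 3 libraries with chemerin-9. The triangles of Hspa5 lie at 1094 to 1115 CPM, under the circles at 2309 to 2361 CPM, whereas those of Atf6 lie above its circles.

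The summed level of the 38 genes was 12276 ± 96.8 CPM in I/R and 7995 ± 12.4 in the chemerin-9 libraries (SD, n = 3 each). As a share of all counts it was 1.197 ± 0.0073% and 0.817 ± 0.0021%. The 10 chaperones carried most of this. Their sum went from 7216 ± 104 to 3869 ± 34.8 CPM, which left 53.6% of the I/R level. The disulfide isomerase family kept 74.1%, degradation 83.0% and the prolyl isomerases 82.3% of their I/R sums, while the sum of the sensors stood at 110.5% of it. Atf6, from 304 to 384 CPM, rose by more than this sum, which went from 630 to 696 CPM. Ern1 rose as well, while Eif2ak3 and Xbp1 fell and Atf6b did not pass. Within the counts of the 38 genes, the chaperones went from 58.8 ± 0.427% to 48.4 ± 0.507% and the sensors from 5.14 ± 0.146% to 8.71 ± 0.0682%. Such a share also rises when the counts of the chaperones fall. In counts of whole libraries, fewer cells of a type and less RNA per cell cannot be told apart.

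**Figure D2:**
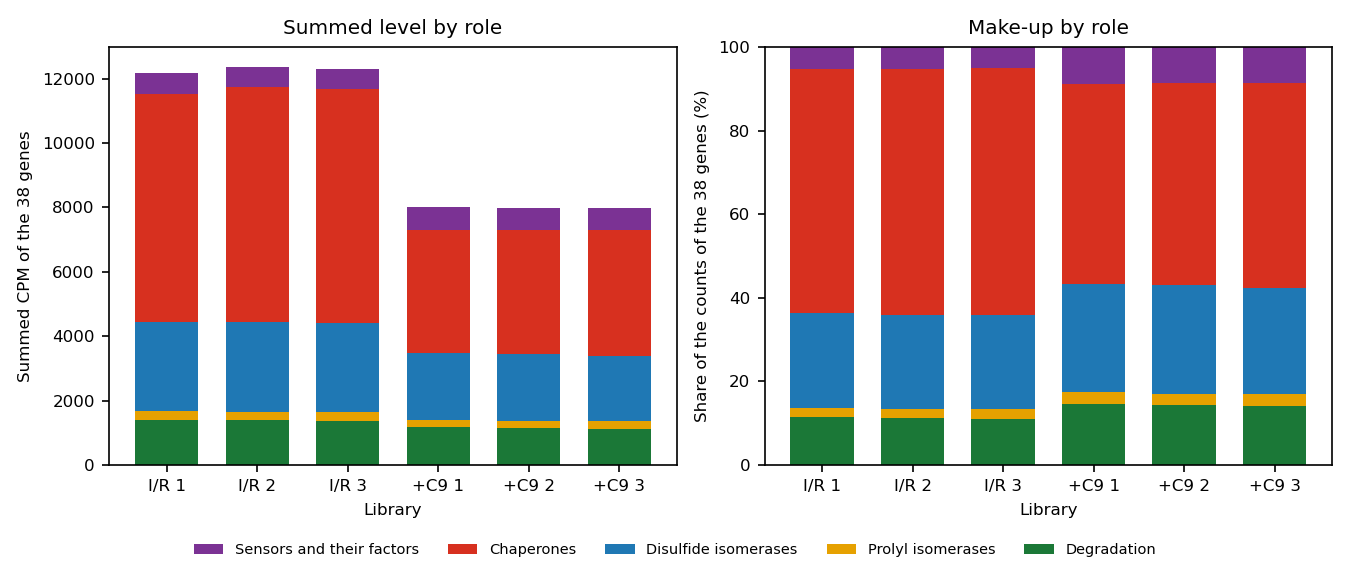
Left, summed CPM of the 38 genes in each library, stacked by role. Right, the share of each role in the counts of the 38 genes, in percent. The left bars stand near 12276 CPM in I/R and near 7995 CPM with chemerin-9, and on the right the chaperone share is near 58.8% and near 48.4%.

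Among the sensors, the directions differed. Atf6, the sensor that is cut in the Golgi to release a transcription factor (chromosome 1, 170704674 to 170867771, GRCm38), held 312, 314 and 284 CPM in the I/R libraries and 389, 385 and 379 CPM with chemerin-9. All treated libraries were higher, and Atf6 rose by 0.34 on the log2 scale (standard error 0.04, edgeR adjusted p = 4.83e-06). Ern1, the gene of IRE1, whose endonuclease splices the Xbp1 transcript (chromosome 11, 106394650 to 106487852), held 109, 105 and 107 CPM in I/R against 125, 124 and 121 CPM with chemerin-9. It rose too, by 0.20 (standard error 0.04, edgeR adjusted p = 6.62e-04). Eif2ak3, the gene of the kinase PERK that slows translation (chromosome 6, 70844515 to 70905245), held 30.8, 30.8 and 32.3 CPM in I/R against 22.4, 19.6 and 19.9 CPM with chemerin-9. It fell by 0.61 on the log2 scale (standard error 0.08, edgeR adjusted p = 1.52e-05), the largest change of the 5 sensor genes. Within a library, the ratio of Ern1 to Eif2ak3 per kilobase of exon went from 2.03 ± 0.0596 to 3.55 ± 0.220.

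Xbp1, the transcription factor gene that IRE1 activates by splicing (chromosome 11, 5520659 to 5525893), held 128, 130 and 125 CPM in I/R against 107, 105 and 110 CPM with chemerin-9. The groups did not overlap, and Xbp1 fell by 0.25 on the log2 scale (standard error 0.04, edgeR adjusted p = 1.28e-04). Counts per gene do not tell spliced from unspliced Xbp1. Atf6b, the close relative of Atf6, held 60.8 ± 1.51 and 61.1 ± 2.85 CPM (SD, n = 3 each) and did not pass (log2 fold change 0.0069, edgeR adjusted p = 0.928). Its ratio to Atf6 therefore moved, with Atf6 over Atf6b per kilobase at 1.78 ± 0.141 in I/R and 2.24 ± 0.126 with chemerin-9.

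**Figure D3:**
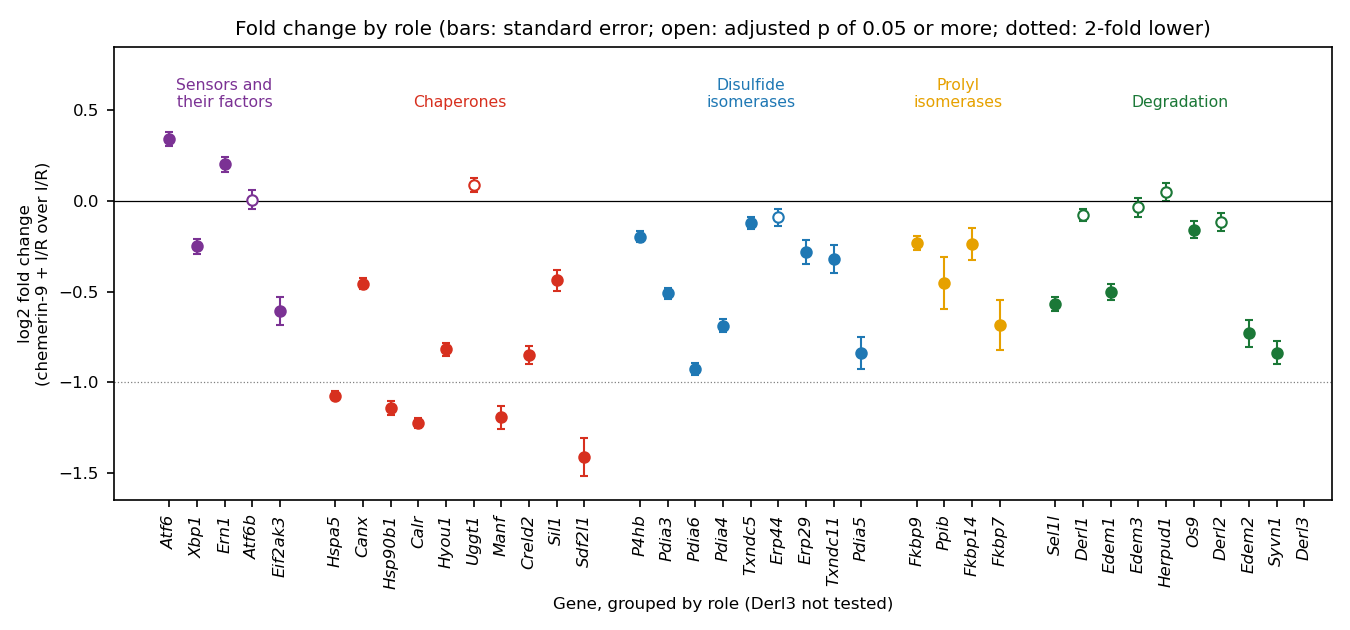
Log2 fold change of the 37 tested genes, chemerin-9 with I/R over I/R, grouped by role. Bars are the standard error, filled points have an adjusted p under 0.05 and the dotted line marks 2-fold lower. Of the points at or under that line, all 5 are chaperones or checkpoint genes, and the 2 filled points above 0 are Atf6 and Ern1.

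Of the 10 chaperones and checkpoint genes, 9 fell (90%) and none rose, against 26.1% and 25.6% of all tested genes. Their median log2 fold change was -0.96. Hspa5, the HSP70 of the ER that also holds the sensors inactive (chromosome 2, 34771970 to 34777547), held 2326, 2361 and 2309 CPM in I/R against 1115, 1094 and 1112 CPM with chemerin-9. It fell 2.11-fold (log2 fold change -1.07 with standard error 0.03, edgeR adjusted p = 1.69e-13), and the spread within each group was small beside the gap. Calr, the soluble lectin that binds glucose-tagged glycoproteins and calcium (chromosome 8, 84841850 to 84846934), held 1204, 1205 and 1237 CPM in I/R against 516, 514 and 527 CPM with chemerin-9. It fell 2.34-fold (log2 fold change -1.23 with standard error 0.03, edgeR adjusted p = 1.65e-13). Hsp90b1, the ER paralogue of HSP90, which folds integrins and Toll-like receptors, held 1210.4, 1278 and 1344 CPM and then 564, 582 and 591 CPM. Its log2 fold change was -1.14. An antisense pseudogene, 1810014B01Rik, overlaps 14.7% of the Hsp90b1 exons but held only 2.27 ± 1.05 and 4.21 ± 0.857 CPM.

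The lectin pair did not move alike. Canx, the membrane-bound counterpart of calreticulin (chromosome 11, 50293961 to 50325673), held 1319, 1385 and 1315 CPM in I/R against 959, 980 and 990.3 CPM with chemerin-9. The groups did not overlap, and Canx fell by 0.46 on the log2 scale (standard error 0.03, edgeR adjusted p = 1.09e-08). Per kilobase of exon, Calr stood at 1.78 ± 0.0707 times Canx in I/R and at 1.04 ± 0.0133 times with chemerin-9 (SD, n = 3 each). The same ratio for Hspa5 over Hsp90b1 was 1.38 ± 0.078 and 1.44 ± 0.0414, with overlapping groups. Uggt1, the glucosyltransferase that tags misfolded glycoproteins for another round with the lectins, held 233, 235 and 220.0 CPM and then 244, 239 and 247 CPM. It did not pass (log2 fold change 0.09, edgeR adjusted p = 0.0599), though it passed as higher with upper-quartile scaling (edgeR adjusted p = 0.0339). Uggt1 stood at 0.0812 ± 0.0022 of Canx per kilobase in I/R and at 0.118 ± 0.0023 with chemerin-9. The fall of Canx was the larger of the 2 changes in this ratio.

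The helpers of BiP fell as well. Sdf2l1, a small partner of the ER J-proteins (chromosome 16, 17130138 to 17132383), held 35.1, 38.4 and 46.8 CPM in I/R against 14.6, 15.3 and 15.5 CPM with chemerin-9. It fell 2.66-fold, the most of the 38 genes (log2 fold change -1.41 with standard error 0.10, edgeR adjusted p = 3.99e-08), and I/R replicate 3 was the highest of its group. Without that library the log2 fold change lay at -1.28. Manf, a secreted stress-induced factor that stabilises BiP complexes, held 157, 176 and 193 CPM and then 72.9, 78.9 and 77.9 CPM, a log2 fold change of -1.20. Hyou1 and Sil1 encode the 2 exchange factors that release ADP from BiP. Hyou1 fell by 0.82 and Sil1 by 0.44 on the log2 scale, and Sil1 over Hyou1 per kilobase went from 0.287 ± 0.0102 to 0.374 ± 0.0312. Creld2, a stress-induced ER protein with isomerase activity, went from 106 ± 5.42 to 58.7 ± 1.07 CPM, a fall of 0.85 on the log2 scale.

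In the disulfide isomerase family 8 of 9 genes fell (88.9%) and none rose, against 26.1% and 25.6% of all tested genes. The median log2 fold change of the family was -0.32. P4hb, the founding isomerase PDI and a subunit of collagen prolyl 4-hydroxylase (chromosome 11, 120560298 to 120573253), held 902, 876 and 886 CPM in I/R against 786, 789.7 and 746 CPM with chemerin-9. It fell by only 0.20 on the log2 scale (standard error 0.03, edgeR adjusted p = 7.49e-05). Pdia6, an isomerase that also dampens IRE1 and PERK (chromosome 12, 17266545 to 17284770), held 488, 499 and 503.5 CPM in I/R against 262, 265 and 258 CPM with chemerin-9. It fell by 0.93 (standard error 0.03, edgeR adjusted p = 1.27e-11), the most of its family. The ratio of Pdia6 to P4hb per kilobase went from 0.737 ± 0.0208 to 0.445 ± 0.0081.

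Pdia3, the isomerase that works on glycoproteins bound to calnexin and calreticulin (chromosome 2, 121413775 to 121438687), held 645, 666 and 648 CPM in I/R against 454, 457 and 465 CPM with chemerin-9. It fell by 0.51 on the log2 scale (standard error 0.03, edgeR adjusted p = 4.68e-09), less than Calr, so that Pdia3 over Calr per kilobase went from 0.424 ± 0.0114 to 0.696 ± 0.0037. Pdia5 held 30.1, 30.2 and 27.1 CPM and then 15.95, 15.3 and 17.4 CPM, a fall of 0.84 (standard error 0.09, edgeR adjusted p = 1.58e-06). Pdia4 fell by 0.69, Txndc11 by 0.32, Erp29 by 0.28 and Txndc5, an isomerase rich in fibroblasts, by 0.12. Naa25 overlaps 30.5% of the Erp29 exons on the opposite strand, and it rose by 0.42, so reads of this pair are uncertain. Several predicted genes also match short stretches of Erp29, at 95.2 to 97.8% identity over 92 to 124 bp. Erp44, which retrieves unfinished proteins from the Golgi, held 88.96 ± 4.44 and 83.4 ± 1.53 CPM and did not pass (edgeR adjusted p = 0.134). Erp44 was lower without I/R replicate 3 (edgeR adjusted p = 0.0269) and with the trend on GC content and exon length removed (edgeR adjusted p = 0.00168).

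All 4 prolyl isomerases passed as lower, against 26.1% of all tested genes, although the numbers of calls depended on the libraries and the method. Fkbp9 held 191, 196 and 187 CPM in I/R against 168, 157 and 164 CPM with chemerin-9, a fall of 0.23 on the log2 scale (standard error 0.04, edgeR adjusted p = 1.75e-04). Fkbp7 held 8.93, 9.81 and 10.3 CPM and then 6.54, 5.23 and 6.37 CPM, a fall of 0.69 (standard error 0.14, edgeR adjusted p = 7.85e-04). Ppib, the ER cyclophilin that helps collagen fold (chromosome 9, 66060222 to 66066623), held 41.2, 41.2 and 65.5 CPM in I/R against 31.9, 37.9 and 38.9 CPM with chemerin-9. Its I/R replicate 3 stood far above the other I/R libraries. Ppib fell by 0.45 (standard error 0.14, edgeR adjusted p = 0.0164), but by 0.18 without I/R replicate 3, where it did not pass (edgeR adjusted p = 0.0514). It did not pass without chemerin-9 replicate 1 either (edgeR adjusted p = 0.0866). With all libraries kept, Ppib did not pass with DESeq2 (DESeq2 adjusted p = 0.14) or a robust prior (edgeR adjusted p = 0.206). The call of Fkbp14 (log2 fold change -0.24, edgeR adjusted p = 0.0317) ended without I/R replicate 1, I/R replicate 2, chemerin-9 replicate 1 or chemerin-9 replicate 3 (edgeR adjusted p = 0.061 to 0.105). Fkbp14 did not pass with DESeq2 either (DESeq2 adjusted p = 0.088). Without chemerin-9 replicate 1, 2 of the 4 genes passed. Snx22 overlaps 57.6% of the Ppib exons on the opposite strand and held under 1 CPM.

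Degradation was split. Of the 10 genes, 9 were tested, 5 fell, none rose and 4 did not pass, with a median log2 fold change of -0.16. The share that fell was 55.6%, against 26.1% of all tested genes, of which 25.6% rose. The ligase and its scaffold fell. Syvn1, the ligase HRD1 (chromosome 19, 6046576 to 6053712), held 48.8, 50.97 and 49.4 CPM in I/R against 28.7, 28.4 and 26.4 CPM with chemerin-9. It fell by 0.84 on the log2 scale (standard error 0.06, edgeR adjusted p = 5.59e-08). Sel1l, the adaptor that keeps HRD1 stable (chromosome 12, 91806043 to 91849157), held 351, 359 and 349.7 CPM and then 252, 233 and 229 CPM, a fall of 0.57 (standard error 0.04, edgeR adjusted p = 1.86e-08). Syvn1 over Sel1l per kilobase went from 0.243 ± 0.0030 to 0.202 ± 0.0072.

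The channel genes around the ligase did not pass. Derl1, a derlin of the exit channel (chromosome 15, 57869502 to 57892448), held 331, 319 and 322 CPM in I/R against 308, 308 and 304 CPM with chemerin-9. The groups did not overlap, but the difference did not pass (log2 fold change -0.078 with standard error 0.03, edgeR adjusted p = 0.0584). A predicted gene, Gm35638, matches Derl1 at 95.4% identity over 652 bp, so reads of the pair are uncertain. Derl2 did not pass (log2 fold change -0.12, edgeR adjusted p = 0.0587), and both derlins passed as lower without I/R replicate 3 (edgeR adjusted p = 0.0276 and 0.00803). Herpud1, an HRD1 partner that is itself a classic stress-induced gene, held 124, 118 and 119.6 CPM and then 132, 127 and 116 CPM, with overlapping groups (log2 fold change 0.05, edgeR adjusted p = 0.41). Derl3, the derlin of secretory cells, held 0.491 ± 0.285 and 0.911 ± 0.447 CPM and was under the filter.

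The mannosidase group of degradation also divided. Edem2, which starts the mannose trimming that marks a glycoprotein for degradation (chromosome 2, 155701677 to 155729475), held 60.9, 51.6 and 52.9 CPM in I/R against 33.9, 34.7 and 31.1 CPM with chemerin-9. It fell by 0.73 on the log2 scale (standard error 0.07, edgeR adjusted p = 1.16e-06). Edem1 fell by 0.50, from 139.6 ± 4.29 to 98.6 ± 4.05 CPM, while Edem3 held 129.8 ± 5.14 and 127 ± 9.05 CPM and did not pass (edgeR adjusted p = 0.598). Edem1 over Edem3 per kilobase lay at 1.15 to 1.21 in the I/R libraries and at 0.781 to 0.929 with chemerin-9. Os9, the lectin that reads the trimmed sugar, fell by 0.16 (edgeR adjusted p = 0.0119), a call that ended without chemerin-9 replicate 1 (edgeR adjusted p = 0.0589).

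In all, 13 ratios of partner genes were compared between the groups. In 12 of them, all but Hspa5 over Hsp90b1, the exact two-sided permutation test over libraries gave p = 0.1 (0.108 after Benjamini-Hochberg adjustment), which is the smallest value that 3 against 3 libraries allow. For Hspa5 over Hsp90b1 the same exact test gave p = 0.4. The ratios therefore did not overlap between the groups in these 12 pairs, and the design could not reach a lower p. How often ratios of other gene pairs separate in this way was not counted. Single genes lay wholly lower in 29.2% and wholly higher in 29.3% of all tested genes, so the 12 pairs are a description only.

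Per kilobase of exon, the levels can be roughly ordered between genes. In I/R, Hspa5 led with 621 ± 7.05 CPM per kilobase, followed by Calr (556 ± 8.70), Hsp90b1 (452 ± 23.7), Canx (313 ± 9.27) and P4hb (310.3 ± 4.57). Canx and P4hb did not differ beyond their spread. With chemerin-9 Hspa5 still led with 295 ± 2.99 CPM per kilobase, but P4hb, at 270.5 ± 8.40, came second, ahead of Calr (238 ± 3.15), Canx (228 ± 3.76) and Hsp90b1 (205 ± 4.78). Pdia3, at 236 ± 4.06 and 166 ± 2.21, and Pdia6, at 229 ± 3.56 and 120.3 ± 1.80, followed in both groups. Among the sensors and their factors, Xbp1 (rank 18 of 38 in I/R and 15 with chemerin-9) and Atf6 (rank 20 and 13) stood in the middle of the order, with Atf6 at 41.9 ± 2.33 and 53.02 ± 0.675 CPM per kilobase. Lower down were Atf6b (rank 27 and 23), Ern1 at 13.1 ± 0.240 and 15.1 ± 0.261 and Eif2ak3 at 6.47 ± 0.184 and 4.26 ± 0.319 CPM per kilobase. Exon lengths were those of GENCODE M21, with the exons of all listed transcripts of a gene merged. Which transcripts were expressed is not known here, so the order is approximate.

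**Figure D4:**
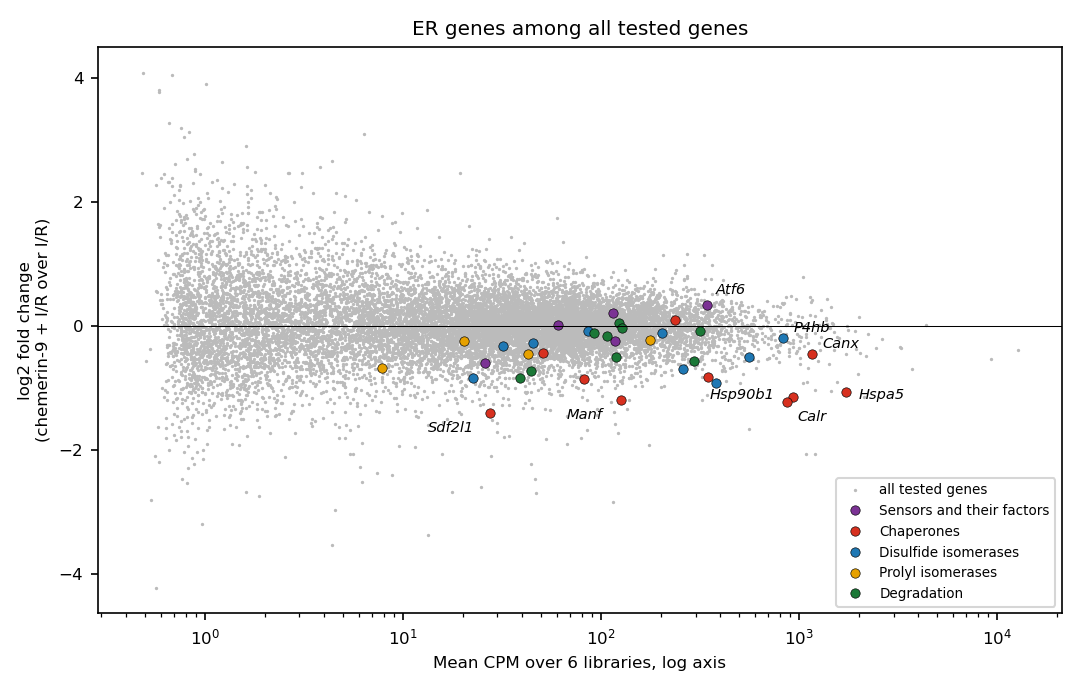
Log2 fold change against mean CPM (log axis) for the 14184 tested genes in grey, with the 37 tested ER genes coloured by role. At the abundant end Hspa5, Calr and Hsp90b1 lie at the lower edge of the cloud, with log2 fold changes of -1.07, -1.23 and -1.14.

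A larger share of abundant genes passed the test, so genes with a mean of at least 100 CPM were also counted alone. Of the 22 ER genes at that level 16 fell and 2 rose, against 38.1% and 33.8% of the 2629 tested genes at that level. At least 2-fold lower were 21 of the 2629 genes (0.799%). Hspa5, Hsp90b1, Calr and Manf were 4 of these 21, which is 19.0% of that list and 18.2% of the 22 ER genes.

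Among the genes with an exact ERSE, the log2 fold changes were -1.23 for Calr, -1.14 for Hsp90b1, -1.07 for Hspa5, -0.93 for Pdia6, -0.85 for Creld2, -0.84 for Syvn1 and -0.46 for Canx, and Derl3 was not tested. All 7 tested genes fell, against 26.1% of all tested genes, with a median of -0.93. The 24 tested ER genes with a window but without the motif had a median of -0.24. Genes without a window, among them the chaperones Manf, Hyou1 and Sil1, which fell, are in neither median. Motif and role went together, since 5 of the 7 are chaperones, the role with the lowest median. The 2 chaperones with a window but no exact ERSE were Sdf2l1 at -1.41 and Uggt1 at 0.09. A part of the motif in the fall was not tested. Sdf2l1, the gene that fell most, had no exact ERSE in its window, and Herpud1, with its ERSE-II, did not pass. Outside the 38 genes, 12 tested genes had an exact ERSE. Of these 6 fell (50%) and 2 rose, against 26.1% and 25.6% of all tested genes. Their median was -0.22, against a median of 0.0018 for the 9690 others without it.

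Another 96 genes of the ER pathway, from 6 lists of 102 genes, had a row, and 94 were tested. Of these 48 fell (51.1%) and 16 rose (17.02%), against 26.1% and 25.6% of all tested genes, with a median log2 fold change of -0.13, and 1 was at least 2-fold lower. In the list of the PERK arm and other stress factors, 6 of 16 fell (37.5%, against 26.1% of all tested genes) and 3 rose (18.8%, against 25.6%). Most genes of this list had a mean of at least 100 CPM. At that level 38.1% of tested genes fell and 33.8% rose, so the share that fell stands near that background. Crebrf, a regulator that promotes the decay of CREB3, fell from 110.4 ± 8.27 to 49.6 ± 1.98 CPM (edgeR adjusted p = 1.06e-09, log2 fold change -1.16). Atf4, the transcription factor downstream of PERK, fell from 856 ± 23.8 to 688 ± 9.68 CPM and Ddit3, the gene of CHOP, from 195 ± 4.87 to 156 ± 8.04 CPM. Trib3, a target of CHOP, rose by 0.15, Ppp1r15b, a phosphatase subunit that reverses the PERK mark, by 0.21 and Eif2s1, the substrate of PERK, by 0.17.

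Of the 6 ER J-proteins, the partners that load BiP with substrates, 4 fell (66.7%, against 26.1% of all tested genes) and none rose (against 25.6%). Dnajb11 fell from 103 ± 2.52 to 71.3 ± 6.69 CPM, Dnajb9 by 0.45 and Dnajc3 by 0.20 on the log2 scale. Among 15 tested thiol oxidoreductases 6 fell (40%, against 26.1% of all tested genes) and 3 rose (20%, against 25.6%). Qsox1, a secreted sulfhydryl oxidase, fell by 0.63, and the PDI oxidases Ero1b and Ero1a fell by 0.61 and 0.22. Txndc15 rose by 0.23, Tmx1 by 0.17 and Qsox2 by 0.16. Leaving out any library but I/R replicate 2 ended the call of Qsox2 (edgeR adjusted p = 0.0825 to 0.143).

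Of 15 genes of glycan addition and trimming 11 fell (73.3%, against 26.1% of all tested genes) and 1 rose (6.67%, against 25.6%). Prkcsh, the beta subunit of glucosidase II, fell from 209 ± 7.37 to 139.7 ± 1.03 CPM, and the oligosaccharyltransferase subunits Ostc and Magt1 fell by 0.67 and 0.56 as log2 fold changes. The gene that rose was Uggt2, the paralogue of Uggt1, from 74.0 ± 3.78 to 118 ± 5.38 CPM. Of 12 genes of collagen folding and other prolyl isomerases 9 fell (75%, against the same 26.1%) and 1 rose (8.33%, against 25.6%). Serpinh1, the collagen chaperone HSP47, fell from 1366 ± 79.4 to 724 ± 23.7 CPM (edgeR adjusted p = 1.51e-10, log2 fold change -0.92), P3h1 fell by 0.74 and Ppic by 0.43. Plod2, a collagen lysyl hydroxylase, was the gene that rose, by 0.11, and its call ended without I/R replicate 1, chemerin-9 replicate 1 or chemerin-9 replicate 3 (edgeR adjusted p = 0.0504 to 0.0915).

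Of the 30 other degradation genes 12 fell (40%, against 26.1% of all tested genes) and 8 rose (26.7%, near the 25.6% of all tested genes), with a median log2 fold change of -0.0031. Rnf5, a membrane ubiquitin ligase, fell by 0.84, Selenos by 0.59 and Bag6, which shields extracted proteins, by 0.42. Ngly1, which strips glycans from extracted proteins, rose from 20.4 ± 1.97 to 36.4 ± 1.77 CPM (log2 fold change 0.83, edgeR adjusted p = 9.78e-07), Erlin1 by 0.44 and Rhbdd1 by 0.32. These lists describe counts, and no list was tested as a set. A share of 40% lower also stands near the 38.1% of tested genes with a mean of at least 100 CPM, a level that only some of the listed genes reached.

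**Figure D5:**
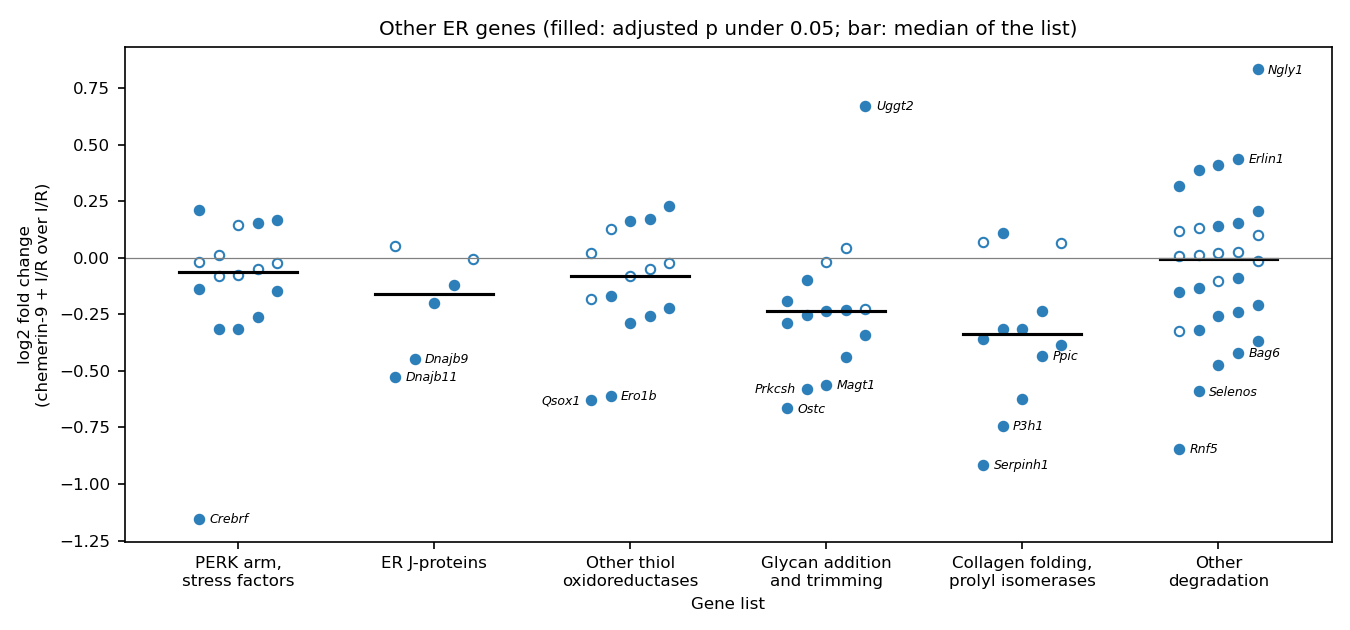
Log2 fold change of the 94 tested genes of 6 other ER lists, chemerin-9 with I/R over I/R. Filled points have an adjusted p under 0.05 and the bar is the median of the list. The medians lie between -0.34 for collagen folding and -0.0031 for other degradation genes.

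Several other measures moved with the fall of the ER genes. Mitochondrial transcripts took 2.81 to 2.94% of the I/R counts and 2.56 to 2.64% of the treated ones, and ribosomal RNA took 0.381 to 0.517% and 0.261 to 0.306%. The summed level of 11 genes of matrix-producing cells was 5670 to 5768 CPM in I/R and 4902 to 5028 CPM with chemerin-9, with 4 of 10 tested genes lower and 2 higher. Of all tested genes 26.1% were lower and 25.6% higher. At a mean of at least 100 CPM these shares were 38.1% and 33.8%, and the 4 of 10 stand near that 38.1%. Vim fell from 1366 ± 38.3 to 853 ± 21.8 CPM, and Acta2, Col1a2 and Fn1 fell by 0.49, 0.30 and 0.13 on the log2 scale. Pdgfrb rose by 0.49 and Col3a1 by 0.45, and Col1a1, Col5a1, Sparc and Pdgfra did not pass. The 10 dividing-cell genes summed to 4550 to 4735 and 4314 to 4383 CPM, with 5 lower. Plasma cells, a type rich in ER, had 4 of 10 genes with a row. Their sum was 72.9 to 77.98 and 66.1 to 71.3 CPM, nearly all of it Sdc1, while Mzb1 was at 0.686 ± 0.430 and 0.904 ± 0.204 CPM and Tnfrsf17 at 0 in I/R and 0.0737 ± 0.128 CPM. The 5 leukocyte genes summed to 60.0 to 63.4 and 50.5 to 54.1 CPM. Of the 3 tested, Cd74 alone was called, as lower (56.3 ± 2.16 and 46.3 ± 0.983 CPM), and it held most of the difference. The 10 nephron genes summed to 70.3 to 73.6 and 50.7 to 59.4 CPM (of the 5 tested, Pax8 alone was called, as lower, and it held most of the difference). The 5 endothelial genes summed to 6.32 to 7.22 and 10.8 to 12.6 CPM. Of the 2 tested, Flt1 alone was called, as higher (4.81 ± 0.423 and 9.25 ± 1.06 CPM), and it held most of the difference. The 4 red cell genes summed to 1.94 to 3.76 and 2.09 to 3.17 CPM, with Hbb-bs at 0 in all libraries. The part of these differences in the ER result was not tested.

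Exon length moved with 1 library and with the groups. In I/R replicate 3, the 3417 tested genes with the shortest exons (up to 1805 bp) had a median of 0.081 above the other I/R libraries on the log2 scale, and the 3412 with the longest (from 4684 bp) had -0.05. The median log2 fold change between the groups was -0.11 for the shortest and 0.061 for the longest. Across the 37 ER genes, which share these libraries, the excess of I/R replicate 3 fell with log exon length (Pearson r = -0.58, Spearman rho = -0.45, as a description). It was 0.67 for Ppib (892 bp), 0.35 for Sdf2l1 (1108 bp) and 0.22 for Manf (2464 bp), and -0.14 for Atf6 (7246 bp). With the trend on GC content and length removed, an alternative added after the data were seen, 31 of the 37 genes fell and 2 rose. Hspa5 stayed at a log2 fold change of -1.15. The rise of Ern1 (8157 bp) shrank from 0.20 to 0.13 and still passed (edgeR adjusted p = 0.00951). Atf6, at 0.34 in the main analysis, was at 0.22 in the alternative where it was lowest. With the trend removed, Derl1, Derl2, Edem3 and Erp44 passed as lower, and the calls of Os9, Plod2, Qsox2, Tmx1 and Eif2s1 ended. Without I/R replicate 3, 30 fell and 2 rose.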

How the data were processed

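RNA-seq counts of 6 libraries (3 I/R, 3 I/R with chemerin-9) were analysed. The authors deposited whole-number counts per gene, made with HISAT2 and HTSeq on mm10, per the submitters' processing notes. Which annotation was counted, and whether strand was used, is not given in the sources used. The same deposited table holds the authors' log2 fold change, their linear fold, and their p-value and FDR, with DESeq 1.18.1 among the tools in the submitters' processing notes. The labels name a stranded mRNA kit.

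From these, 27 repeated rows were removed, which left 25189 symbols, and 14184 genes that passed filterByExpr, with 99.8% of counts, were tested with edgeR 4.0.16 (R 4.3.3, TMM factors, quasi-likelihood test, Benjamini-Hochberg over all tested genes, threshold 0.05). Standard errors are the log2 fold change divided by the root of F. The biological coefficient of variation was 5.18%. Total counts per library set the precision, and SDs cover the spread between 3 libraries. On simulated counts of 13958 genes, 54% of 50 genes changed 1.25-fold and 88% of 50 changed 2-fold were recovered, with 7.98% false calls. Levels per kilobase used exon lengths of GENCODE M21, which matched 97.5% of gene starts. Near-identical copies were sought with BLAST 2.17.0. Promoters are RefSeq windows of GRCm38.p6.

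The members and lists were chosen with earlier results of these data known. Genes were given library by library by a rule, and the rest of the 38 by summary values. The rule took, per role, the 2 genes highest in mean CPM and the 2 with the largest absolute log2 fold change, plus the 3 sensors and Xbp1. Hsp90b1, Manf, Uggt1 and Herpud1 are outside the rule and were given by library after their values were seen. Of 102 other pathway genes, 96 were in the table, and up to 3 with the smallest p in each direction of each list were named. Alternatives were other scalings, DESeq2 1.42.0, limma-voom 3.58.1, filters, a replicate block, leaving out each library and, added after the data were seen, removal of a GC and length trend (mgcv 1.9.3).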

Additional observations from a re-analysis of the deposited data

How the results depend on the processing

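The count of 28 lower ER genes was 26 with DESeq2, 29 with limma-voom, 30 at a threshold of 0.1 and 31 after removal of the trend on GC and length, and it ranged from 25 to 30 when 1 library was left out. The 2 higher genes became 3 with upper-quartile scaling, limma-voom, a robust prior or the threshold of 0.1, through Uggt1. For the prolyl isomerases, 4 lower genes became 2 with DESeq2 and 3 with a robust prior. When 1 library was left out, 2 to 4 passed, 2 of them without chemerin-9 replicate 1. The cause was not tested. Of 629 values of the 37 tested genes under the alternatives, 598 kept direction and side of the threshold, 11 lost the call, 15 gained one and 5 changed sign, all in genes that did not pass. Uggt1 lay at -0.012 with the trend removed. With 1 library left out, Atf6b ranged from -0.036 to 0.029 and Edem3 from -0.075 to 0.022 on the log2 scale. Same-numbered libraries correlated in their deviations at 0.14, -0.079 and 0.053, so the numbers do not pair them. With the replicate number as a block, 28 ER genes were lower and 2 higher, and 7300 genes passed in all against 7336, while Qsox2 did not pass (edgeR adjusted p = 0.051). DESeq2 called 6312 genes. The false-call share in the simulation and the 3 libraries per group limit small changes, and the levels of Derl3 and of many marker genes are near the floor of these depths.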
